A study of Mus musculus with 12 samples.

Results

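The genes described here carry heme breakdown, iron storage and iron transport. There are 10 of them among the 12344 genes with a named probe on the arrays, and they are represented by 16 of the 23863 probes in the deposited table. A probe was taken as a member when the platform annotation gave it the symbol Hmox1, Hmox2, Blvra, Blvrb, Fth1, Ftl1, Slc40a1, Tfrc, Slc11a2 or Alas1, and all 10 genes had at least 1 probe. Probes were taken by symbol alone and not by their values, but the list of genes was chosen with earlier results of these data known.

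Illumina MouseWG-6 BeadChips were hybridised with RNA from 12 C57BL/6 mice of 15 weeks of age, 4 Fh1-/- mice, 4 Fh1-/-Hif-1α-/- mice and 4 control mice. Fh1-/- mice were homozygous for a conditional allele of Fh1, the gene of fumarate hydratase, and carried Cre recombinase under the kidney-specific cadherin (Ksp) promoter. Fh1-/-Hif-1α-/- mice were in addition homozygous for a conditional allele of Hif-1α. The control group was drawn from the same litters. A control could lack the Cre, or carry it and keep an intact allele, and which of these each mouse was is not given in the sources used here. Ksp-Cre acts in renal tubule epithelium, so vessels, interstitium, blood and any tubule cells that escaped recombination keep both genes in every group. The labels call all 12 samples cysts, control samples included, whereas the study describes kidneys, and the tubule markers below are bright on all arrays.

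Heme is opened by heme oxygenase into biliverdin, carbon monoxide and ferrous iron, and biliverdin reductase then turns biliverdin into bilirubin. The freed iron is stored inside ferritin, a shell of heavy (Fth1) and light (Ftl1) chains, or leaves the cell through ferroportin (Slc40a1), while new iron enters through the transferrin receptor (Tfrc) and the divalent metal transporter DMT1 (Slc11a2). Alas1 makes the first dedicated intermediate of heme synthesis. Hmox1, Blvrb, both ferritin chains and Slc40a1 are known from other work as targets of the transcription factor Nrf2, which Keap1 holds low and Bach1 opposes at many of the same sites. Tfrc and Hmox1 are known as targets of Hif. Iron regulatory proteins also control ferritin and Slc40a1 translation and the stability of Tfrc mRNA, so mRNA levels do not give protein levels for these genes.

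Upstream sequences from RefSeq (build GRCm38.p6) were searched in a window of 250 bases before to 50 bases after each transcript start, on both strands. The table held 13 starts for 7 of the 10 genes, and Hmox1, Slc40a1 and Slc11a2 were not listed in it. The motifs were the core of the antioxidant response element to which Nrf2 binds, TGACNNNGC, and the forms of the core of the hypoxia response element, which are ACGTG and GCGTG. TGACNNNGC was present in 12.4% of all 32851 windows and in 1 of the 13 member windows, that of Blvra. ACGTG was present in 19.6% of all windows and in 3 of the 13 member windows, which belong to Blvrb and Tfrc. Windows of the same gene can overlap, and the Tfrc matches are the same site seen from both listed starts. GCGTG was present in 32.4% of all windows and in 8 of the 13 member windows, which belong to 6 genes, Blvra being the exception. The Alas1 matches to it are likewise the same site seen from both of its starts. The windows of 30 bases around the matches to the rarer motifs are shown because they are the places where the letters known for Nrf2 or Hif occur next to a member gene. Each is written 5′ to 3′ on the strand of the gene with the matched letters in capitals.
Blvra, chr2:127070598-127070627, plus strand, the match lies on the opposite strand at -49 to -41 from the start: cacgggaattGCTCGGTCAaggctccgcct
Blvrb, chr7:27452283-27452312, plus strand, at -123 to -119 from the second listed start: cttttcatctcaACGTGaactgtgtgcttt
Tfrc, chr16:32608882-32608911, plus strand, at -2 to 3 across the first listed start: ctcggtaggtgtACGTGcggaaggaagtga
A match is a description of the letters and not evidence that a factor binds there.

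The arrays differed in ways that their labels do not name. The 1st percentile of signal lay between 7.34 and 7.54 on the log2 scale. It was higher on all 6 arrays of replicates 1 and 2 than on all 6 of replicates 3 and 4. Differences within these sets of arrays are therefore also given for Hmox1, Blvrb, Slc40a1, Tfrc, Alas1 and the dim Blvra probe. Xist, expressed from the inactive X chromosome, read 12.1 or more on 5 arrays (2 Fh1-/-, 2 Fh1-/-Hif-1α-/- and 1 control) and 7.76 or less on the remaining arrays. No sex is named in the labels. The brightest Fh1 probe was lower by 0.14 in Fh1-/- kidneys (adjusted p = 0.446) and by 0.40 in Fh1-/-Hif-1α-/- kidneys (adjusted p = 0.0141). The brightest Hif1a probe was higher by 0.85 in Fh1-/-Hif-1α-/- kidneys than in control kidneys (adjusted p = 0.0164), which is not the direction of its deletion, and its second probe lies at the 0.1 percentile of signal. Whether these probes lie within the deleted exons is not given in the sources used here, so they do not check the labels, and every group below is the group as labelled. Cdh16, the cadherin whose promoter drives the Cre, was lower by 0.44 in Fh1-/- kidneys (adjusted p = 0.0462) and by 0.28 in Fh1-/-Hif-1α-/- kidneys (adjusted p = 0.108).

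Hmox1, the inducible heme oxygenase, was far higher in both knockout groups than in control kidneys. Its log2 normalized signal was 11.86, 10.58, 11.12 and 11.79 in Fh1-/- kidneys, 11.08, 11.87, 10.96 and 11.50 in Fh1-/-Hif-1α-/- kidneys, and 8.20, 9.14, 8.98 and 9.22 in control kidneys. The lowest knockout array was above the highest control array by 1.35 in the first comparison and by 1.74 in the second. The mean was 11.34 ± 0.60 in Fh1-/- kidneys and 8.88 ± 0.47 in control kidneys (SD, n = 4 each), a rise of 2.45 with a standard error of 0.31, or 5.47-fold (adjusted p = 0.00108, limma). In Fh1-/-Hif-1α-/- kidneys the mean was 11.35 ± 0.42 (SD, n = 4), a rise of 2.47 or 5.54-fold over control (adjusted p = 0.00031). An exact two-sided permutation test gave p = 0.029 in each case, the smallest that 4 arrays against 4 allow. By absolute difference the probe ranked 31 of 23863 in Fh1-/- kidneys and 62 in Fh1-/-Hif-1α-/- kidneys. The rise was 2.55 and 2.36 within the array sets in Fh1-/- kidneys, where 2 arrays against 2 did not pass (adjusted p = 0.0679 and 0.0507), and 2.81 and 2.13 in Fh1-/-Hif-1α-/- kidneys, where both passed (adjusted p = 0.0172 and 0.0386).

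Hmox2, the constitutive heme oxygenase, had no such rise. It read 12.30, 12.18, 11.90 and 12.03 in Fh1-/- kidneys, 12.22, 12.35, 11.89 and 12.09 in Fh1-/-Hif-1α-/- kidneys, and 12.38, 12.37, 12.26 and 12.30 in control kidneys. These groups overlap, and the differences of -0.22 (95% interval -0.47 to 0.03) and -0.19 (-0.44 to 0.06) did not pass (adjusted p = 0.288 and 0.289). The Hmox2 intervals lie wholly below those of Hmox1, whose lower bounds are 1.78 and 1.80.

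**Figure D1:**
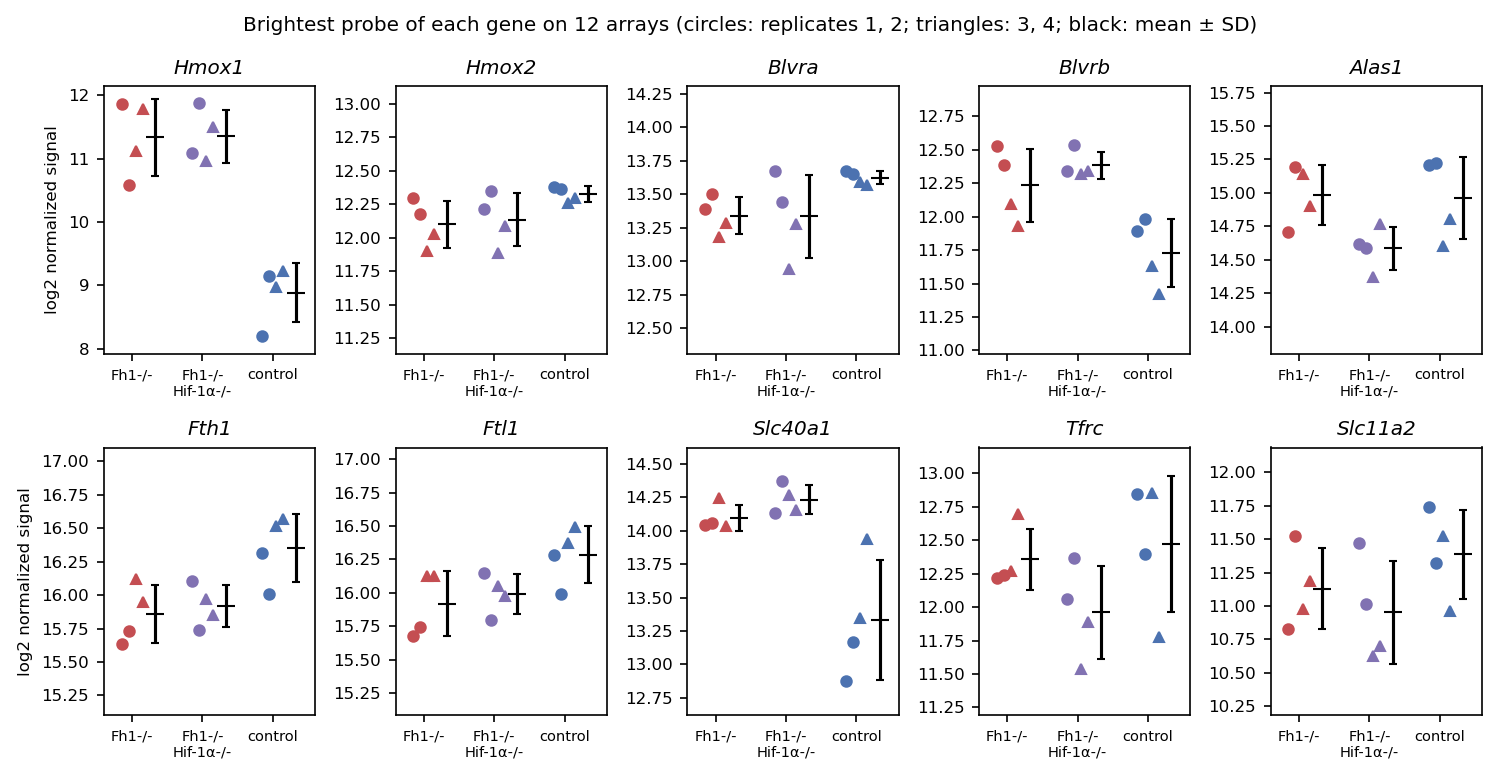
Log2 normalized signal of the brightest probe of each of the 10 genes (vertical axes, of different range per panel) in 4 Fh1-/-, 4 Fh1-/-Hif-1α-/- and 4 control kidneys, with circles for replicates 1 and 2, triangles for replicates 3 and 4, and black bars for the mean and SD. Hmox1 and Slc40a1 sit above control on every knockout array, and Blvrb does so on every Fh1-/-Hif-1α-/- array.

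Of the biliverdin reductases, only Blvrb rose. Blvrb, which reduces biliverdin IXβ and flavins, read 12.53, 12.39, 12.10 and 11.93 in Fh1-/- kidneys, 12.34, 12.53, 12.32 and 12.34 in Fh1-/-Hif-1α-/- kidneys, and 11.89, 11.98, 11.63 and 11.42 in control kidneys. It rose by 0.65 in Fh1-/-Hif-1α-/- kidneys (standard error 0.15, 1.57-fold, adjusted p = 0.0117), where no array overlapped control. In Fh1-/- kidneys replicate 4 fell within the control range, and the difference of 0.50 did not pass (adjusted p = 0.0740), although it did without that array, at 0.61 (adjusted p = 0.0403). A dimmer second Blvrb probe gave 0.38 in Fh1-/- kidneys (adjusted p = 0.141) and 0.59 in Fh1-/-Hif-1α-/- kidneys (adjusted p = 0.0149), the same calls as the first. With the array set as a block both probes also passed in Fh1-/- kidneys (adjusted p = 0.0156 and 0.0309). With the replicate number as a block the first probe passed there (adjusted p = 0.0301) and the second did not (adjusted p = 0.0535). The first probe was higher by 0.52 and 0.48 within the sets. Within the sets the Fh1-/-Hif-1α-/- difference was 0.50 (adjusted p = 0.0428) and 0.80 (adjusted p = 0.0814).

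Blvra, the main reductase of adult tissue, was not higher in either group. Its bright probe read 13.39, 13.50, 13.18 and 13.28 in Fh1-/- kidneys, 13.68, 13.44, 12.94 and 13.28 in Fh1-/-Hif-1α-/- kidneys, and 13.68, 13.65, 13.59 and 13.57 in control kidneys. All Fh1-/- arrays lay below the control arrays, by at least 0.07, yet the difference of -0.29 (95% interval -0.58 to 0.01) did not pass over all probes (adjusted p = 0.244). The difference in Fh1-/-Hif-1α-/- kidneys was also -0.29 (adjusted p = 0.164), and it passed without replicate 1 of that group, at -0.40 (adjusted p = 0.0446). The other Blvra probe lies at the 1.4 percentile of signal and gave -0.15 and -0.21, neither of which passed. In Fh1-/-Hif-1α-/- kidneys it passed within replicates 1 and 2, at -0.53 (adjusted p = 0.0464), and gave 0.12 within replicates 3 and 4. Bright probes lay lower in knockout kidneys in general, and probes within 0.5 percentile of the bright Blvra probe had median differences of -0.08 and -0.12.

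Slc40a1 encodes ferroportin, the only known cellular exporter of iron. It read 14.04, 14.06, 14.24 and 14.03 in Fh1-/- kidneys, 14.13, 14.37, 14.27 and 14.16 in Fh1-/-Hif-1α-/- kidneys, and 12.88, 13.17, 13.35 and 13.94 in control kidneys. No knockout array overlapped control, although control replicate 4, the single control array with a high Xist signal, came within 0.09 of the lowest Fh1-/- array. The rise was 0.76 in Fh1-/- kidneys (standard error 0.17, 1.69-fold, adjusted p = 0.0285) and 0.90 in Fh1-/-Hif-1α-/- kidneys (1.86-fold, adjusted p = 0.0048). With Xist as a covariate it was 0.69 (adjusted p = 0.0158) and 0.83 (adjusted p = 0.0023). That fit takes the rise to be the same at low and high Xist, which was not tested. Among arrays with high Xist, Slc40a1 read 14.04 and 14.24 in Fh1-/- kidneys and 14.37 and 14.27 in Fh1-/-Hif-1α-/- kidneys. The single such control array read 13.94, and the other control arrays read 12.88 to 13.35. Control kidneys spread more than either knockout group, with an SD of 0.45 against 0.10 in Fh1-/- kidneys and 0.11 in Fh1-/-Hif-1α-/- kidneys. The Fh1-/- call was the less firm of the 2, since it was lost when Fh1-/- replicate 1 or 3 or control replicate 1, 2 or 3 was left out (differences of 0.61 to 0.78, adjusted p = 0.0631 to 0.092), and the difference was 1.03 within replicates 1 and 2 but 0.49 within replicates 3 and 4 (adjusted p = 0.0382 and 0.457). The Fh1-/-Hif-1α-/- call held without any single array, and its difference was 1.23 and 0.57 within the sets (adjusted p = 0.0062 and 0.249).

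Fth1 and Ftl1, the ferritin chains, were close to the highest signal on each array, and these data do not show whether they rose or fell. Whether the arrays were saturated at these signals was not tested. The brightest Fth1 probe read 15.64, 15.73, 16.12 and 15.95 in Fh1-/- kidneys, 16.11, 15.74, 15.97 and 15.85 in Fh1-/-Hif-1α-/- kidneys, and 16.31, 16.01, 16.51 and 16.57 in control kidneys. Ftl1 read 15.68, 15.74, 16.13 and 16.13 in Fh1-/- kidneys, 16.15, 15.80, 16.05 and 15.98 in Fh1-/-Hif-1α-/- kidneys, and 16.29, 16.00, 16.37 and 16.49 in control kidneys. On every array these readings were within 0.22 of the highest signal of any probe, and that highest signal was itself lower in knockout kidneys, at 15.70 to 16.19 in Fh1-/-, 15.87 to 16.18 in Fh1-/-Hif-1α-/- and 16.04 to 16.63 in control kidneys. The differences from control were -0.49 (adjusted p = 0.0658) and -0.43 (adjusted p = 0.052) for Fth1 and -0.37 (adjusted p = 0.136) and -0.29 (adjusted p = 0.161) for Ftl1, and the second Fth1 probe gave -0.42 and -0.36. None passed. The 75 other probes at least as bright as the dimmest ferritin probe all lay below control, with medians of -0.42 in Fh1-/- kidneys and -0.37 in Fh1-/-Hif-1α-/- kidneys, so the ferritin differences have the size of those of other probes at the top of the scale. With quantile normalization, which gives all arrays the same highest values, they were -0.06 and -0.07 for Fth1 and 0.06 and 0.07 for Ftl1. Fth1 passed against control in both groups with the array set as a block (adjusted p = 0.0290 and 0.0217). It also did with the replicate number as a block (adjusted p = 0.0398 and 0.0287) and without control replicate 2 (adjusted p = 0.0329 and 0.0201). In Fh1-/-Hif-1α-/- kidneys it passed as well without Fh1-/- replicate 3 or Fh1-/-Hif-1α-/- replicate 1 (adjusted p = 0.0462 and 0.0428). All these fits carry the same limit.

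Ferritin mRNA is also abundant in maturing red cells, and the summed red cell signal was lower in most knockout kidneys. Summed over 7 measured red cell markers, the linear signal ranged over 28699 to 88661 in Fh1-/- kidneys, 47074 to 83967 in Fh1-/-Hif-1α-/- kidneys and 86647 to 172553 in control kidneys, and it was highest on control replicates 3 and 4. Of these 7 markers 1 passed, Slc4a1, beside 6.16% and 19.3% of all genes called. Slc4a1 is the anion exchanger of red cells and of intercalated cells of the collecting duct. It was lower by 1.22 in Fh1-/- kidneys and by 1.53 in Fh1-/-Hif-1α-/- kidneys. Hba-a1, an α-globin gene, gave -1.15 (adjusted p = 0.0775) and -0.89 (adjusted p = 0.0990). With ferritin at the top of the scale, their part in its values was not tested.

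The entry of iron showed no difference that passed. Tfrc, which takes up iron bound to transferrin, read 12.22, 12.24, 12.27 and 12.70 in Fh1-/- kidneys, 12.06, 12.37, 11.53 and 11.89 in Fh1-/-Hif-1α-/- kidneys, and 12.85, 12.40, 12.85 and 11.78 in control kidneys. Control replicate 4, again the array with high Xist, was the lowest control by 0.62. The Tfrc difference was -0.11 in Fh1-/- kidneys (95% interval -0.63 to 0.40) and -0.51 in Fh1-/-Hif-1α-/- kidneys (-1.02 to 0.01, adjusted p = 0.165), and the second passed only without control replicate 4, at -0.74 (adjusted p = 0.0236). The other Tfrc probe gave -0.11 and -0.54. Within replicates 1 and 2 and within replicates 3 and 4 the brightest Tfrc probe gave -0.39 and 0.17 in Fh1-/- kidneys. In Fh1-/-Hif-1α-/- kidneys it gave -0.41 and -0.60 within these sets, and none of these differences passed. The 3 probes of Slc11a2, the transporter of ferrous iron at the apical membrane and from endosomes, gave -0.26, -0.08 and -0.39 in Fh1-/- kidneys and -0.43, -0.27 and -0.36 in Fh1-/-Hif-1α-/- kidneys, and none passed. Its brightest probe ranged over 10.83 to 11.52 in Fh1-/-, 10.63 to 11.47 in Fh1-/-Hif-1α-/- and 10.96 to 11.74 in control kidneys.

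Alas1, at the entry of heme synthesis, read 14.71, 15.20, 15.14 and 14.90 in Fh1-/- kidneys, 14.61, 14.59, 14.37 and 14.77 in Fh1-/-Hif-1α-/- kidneys, and 15.21, 15.23, 14.61 and 14.80 in control kidneys. The difference was 0.03 in Fh1-/- kidneys (95% interval -0.31 to 0.36) and -0.37 in Fh1-/-Hif-1α-/- kidneys (-0.71 to -0.04, adjusted p = 0.119), and neither passed. Probes of like signal, within 0.5 percentile of that of Alas1, had medians of -0.15 and -0.20. Within replicates 1 and 2 and within replicates 3 and 4 Alas1 gave -0.27 and 0.32 in Fh1-/- kidneys. In Fh1-/-Hif-1α-/- kidneys it gave -0.62 and -0.13 within these sets, and none of these differences passed.

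Of the 10 genes, 2 rose and 0 fell in Fh1-/- kidneys (Hmox1 and Slc40a1), beside 3.9% of all genes that rose, 2.26% that fell and 6.16% that were called in either direction. In Fh1-/-Hif-1α-/- kidneys 3 rose and 0 fell (Hmox1, Slc40a1 and Blvrb), beside 10.7% of all genes that rose, 8.64% that fell and 19.3% called. By probe, 2 of 16 and 4 of 16 passed, all higher, beside 4.97% and 16.6% of all probes called (3.04% and 8.62% higher, 1.93% and 7.97% lower). The median difference over the 10 genes was -0.17 in Fh1-/- kidneys and -0.29 in Fh1-/-Hif-1α-/- kidneys, beside -0.03 in each over all genes, and 4 and 3 of the 10 genes lay above control. At an unadjusted p under 0.05 there were 7 and 9 of the 16 probes, beside 21.4% and 31.3% of all probes. These counts include the 3 ferritin probes at the top of the scale. Both comparisons use the same 4 control arrays.

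**Figure D2:**
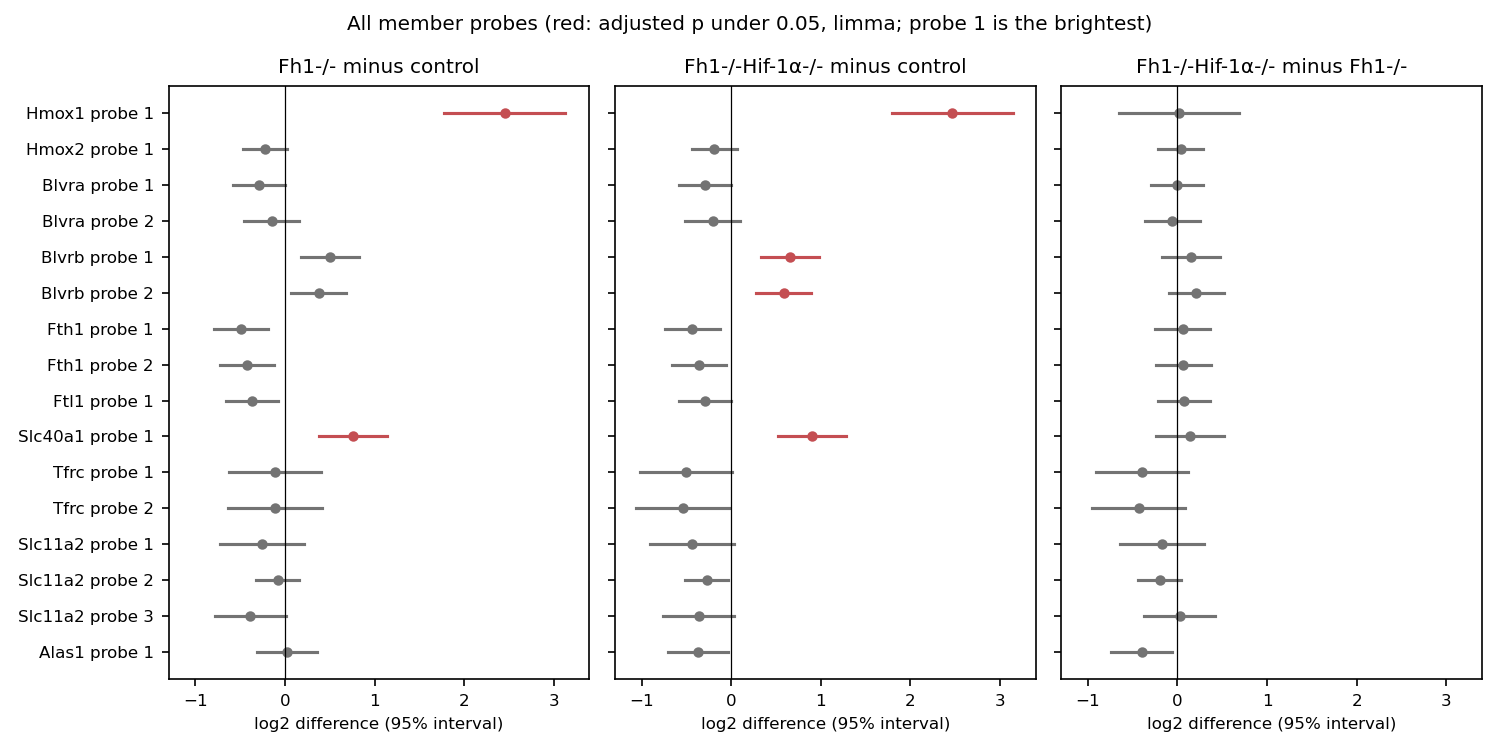
Log2 difference with its 95% interval (horizontal axis) for each of the 16 probes (vertical axis), in Fh1-/- minus control, Fh1-/-Hif-1α-/- minus control and Fh1-/-Hif-1α-/- minus Fh1-/- kidneys, with red for an adjusted p under 0.05. Hmox1 stands at 2.45 and 2.47 against control, the other called probes lie between 0.59 and 0.90, and no probe is red in the third panel.

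The added loss of Hif-1α was examined by setting Fh1-/-Hif-1α-/- against Fh1-/- kidneys. No member probe passed in this comparison, where 0.189% of all probes were called (0.138% higher and 0.0503% lower) and 0.267% of all genes (0.186% higher and 0.081% lower), and 1 of 16 probes had an unadjusted p under 0.05 in limma, beside 8.81% of all probes. Hmox1 differed by 0.02 (95% interval -0.65 to 0.69, adjusted p = 0.996). The differences were 0.15 for Blvrb (-0.18 to 0.47) and 0.14 for Slc40a1 (-0.24 to 0.52). Alas1 had the lowest unadjusted p, with a difference of -0.40 (-0.74 to -0.06, adjusted p = 0.446), and 3 of its 4 Fh1-/-Hif-1α-/- arrays lay below every Fh1-/- array. Tfrc differed by -0.39 (-0.91 to 0.12, adjusted p = 0.745). Its difference was -0.01 within replicates 1 and 2 and -0.77 within replicates 3 and 4, neither of which passed.

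The gene whose pattern over the 12 arrays was closest to that of Hmox1 was Fbxo2, a substrate adaptor of a ubiquitin ligase, followed by Ddit3, the stress transcription factor CHOP, Chac1, which degrades glutathione, Cdkn1a, the cell cycle inhibitor p21, and Sprr1a, a cornified envelope protein. Likeness was the root mean square difference between signals centred on each gene's mean, and it was 0.33, 0.36, 0.38, 0.38 and 0.41 on the log2 scale for these genes against a median of 1.27 over 12343 genes. This is a description without a test, and the points share groups and array sets. Slc40a1 ranked 254 at 0.87 and Blvrb 790 at 1.02, while the other 7 members ranked 8633 or lower. The measure keeps the size of a change, so a gene with a smaller rise than Hmox1 stands apart from it whatever the shape of its pattern.

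Other genes came from lists of general knowledge, with 80 genes beside the members, of which 65 were measured. Most belong to heme and iron handling, and 9 of the measured genes to a list of Nrf2, its partner regulators and Nqo1. Of these 65, 7 passed in Fh1-/- kidneys and 20 in Fh1-/-Hif-1α-/- kidneys, beside 6.16% and 19.3% of all genes. Between the knockout groups 0 passed and 9 had an unadjusted p under 0.05 in limma, beside 10.8% of all genes. The largest rise among the 65 genes was that of Lcn2. Lcn2, which binds siderophores that carry iron and is secreted by injured tubules, read 14.19, 13.29, 14.42 and 13.20 in Fh1-/- kidneys, 15.03, 15.00, 15.25 and 15.13 in Fh1-/-Hif-1α-/- kidneys, and 9.35, 8.76, 8.96 and 10.11 in control kidneys. The knockout arrays were all far above control, and the Fh1-/-Hif-1α-/- arrays were all above the Fh1-/- arrays, although that second difference of 1.33 did not pass over all probes (adjusted p = 0.123).

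Cp, the ferroxidase ceruloplasmin that loads exported iron onto transferrin, read 12.64, 11.74, 12.58 and 12.07 in Fh1-/- kidneys, 12.45, 12.65, 12.30 and 12.27 in Fh1-/-Hif-1α-/- kidneys and 10.72, 10.89, 10.64 and 11.58 in control kidneys. It rose by 1.30 (adjusted p = 0.0074) and 1.46 (adjusted p = 0.0012), and its other 3 probes gave smaller differences, of which 1 passed, at 0.83 in Fh1-/-Hif-1α-/- kidneys. Steap1, of a family of metalloreductases, rose by 0.87 and 1.14. Trf, transferrin itself, rose by 1.24 in Fh1-/-Hif-1α-/- kidneys (adjusted p = 0.0419). Its Fh1-/- difference of 1.00 did not pass. Beside 6.16% of all genes called, 3 of the 14 measured genes of this list rose and 0 fell in Fh1-/- kidneys. In Fh1-/-Hif-1α-/- kidneys 4 rose and 3 fell, beside 19.3% of all genes called. The falls were those of Slc39a8, a transporter of zinc, manganese and iron (-0.50), Slc25a28, the mitochondrial iron importer mitoferrin 2 (-0.41), and Slc22a17, a receptor for the Lcn2 protein (-0.50).

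In heme and hemoglobin transport, Cd163, the macrophage receptor for hemoglobin bound to haptoglobin, read 9.38, 8.56, 7.96 and 8.11 in Fh1-/- kidneys, 8.84, 9.46, 9.67 and 9.59 in Fh1-/-Hif-1α-/- kidneys and 7.10 to 7.36 in control kidneys. It rose by 1.27 (adjusted p = 0.0202) and 2.16 (adjusted p = 0.00031). On all 4 control arrays it lay below the 1st percentile of signal, at the floor of the scale, so the size of these differences is uncertain. A second, dimmer probe of it passed in Fh1-/-Hif-1α-/- kidneys only, at 0.58, and its 0.29 in Fh1-/- kidneys did not. Slc48a1, which moves heme out of lysosomes, rose by 0.70 in Fh1-/-Hif-1α-/- kidneys, and its 0.37 in Fh1-/- kidneys did not pass. Slc46a1, a carrier of folate and heme, and Lrp2 and Cubn, the proximal tubule receptors megalin and cubilin that take up filtered proteins, hemoglobin among them, fell in Fh1-/-Hif-1α-/- kidneys by 0.67, 0.78 and 0.91. Of 13 measured genes of this list, 1 rose and 0 fell in Fh1-/- kidneys, and 2 rose and 3 fell in Fh1-/-Hif-1α-/- kidneys. The shares called over all genes were 6.16% and 19.3%.

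Heme synthesis beyond Alas1 was lower where it differed. Of 7 measured genes 0 rose and 1 fell in Fh1-/- kidneys, and 0 rose and 2 fell in Fh1-/-Hif-1α-/- kidneys. The shares of all genes that fell were 2.26% and 8.64%. Uros, which closes the ring of uroporphyrinogen, read 10.40, 10.38, 10.57 and 10.44 in Fh1-/- kidneys, 10.34, 9.91, 10.44 and 10.19 in Fh1-/-Hif-1α-/- kidneys and 10.92 to 11.03 in control kidneys. It fell by 0.54 (adjusted p = 0.0199) and 0.76 (adjusted p = 0.0009), without overlap, and its 2 other probes passed in the same direction in both groups. Ppox, the oxidase before the last step, fell by 0.52 in Fh1-/-Hif-1α-/- kidneys on its brightest probe, while its second probe gave -0.36 and did not pass.

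Among 10 measured genes of iron sensing and the hepcidin axis, 1 rose in Fh1-/- kidneys, and 2 rose and 1 fell in Fh1-/-Hif-1α-/- kidneys. The shares called over all genes, for this list and the next, were 6.16% and 19.3%. Hfe, a partner of the transferrin receptors in which human hemochromatosis mutations occur, rose by 0.96 (adjusted p = 0.0106) and 1.09 (adjusted p = 0.0016), and its second probe passed as well at 0.90 and 0.87. Neo1, a coreceptor of the hepcidin pathway, rose by 0.50 in Fh1-/-Hif-1α-/- kidneys on its brightest probe alone, and its 3 other probes gave -0.26 to -0.04. Fbxl5, the iron sensor that degrades iron regulatory protein, fell by 0.44 in Fh1-/-Hif-1α-/- kidneys on its brightest probe, and its other probe gave -0.04. Of 12 genes of ferritin loading, ferritin turnover and iron-sulfur assembly, 0 passed in Fh1-/- kidneys and 1 in Fh1-/-Hif-1α-/- kidneys, Nfs1, the cysteine desulfurase, which fell by 0.64.

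Nqo1, a quinone reductase used widely as a readout of Nrf2, rose by 1.72 (adjusted p = 0.0016) and 2.16 (adjusted p = 0.0001). Its signal was 13.48, 13.11, 12.91 and 12.67 in Fh1-/- kidneys, 13.29, 13.95, 12.88 and 13.80 in Fh1-/-Hif-1α-/- kidneys, and 11.50, 11.52, 11.27 and 11.01 in control kidneys. The mRNAs of the regulators did not pass, with differences in Fh1-/- kidneys and in Fh1-/-Hif-1α-/- kidneys of 0.14 and 0.22 for Nfe2l2, which encodes Nrf2, 0.09 and 0.20 for Keap1, and 0.05 and -0.21 for Bach1. Of 9 measured genes in this list 1 rose in Fh1-/- kidneys and 2 in Fh1-/-Hif-1α-/- kidneys, beside 3.9% and 10.7% of all genes. The second was Nfe2l1 at 0.52, which encodes the related factor Nrf1.

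**Figure D3:**
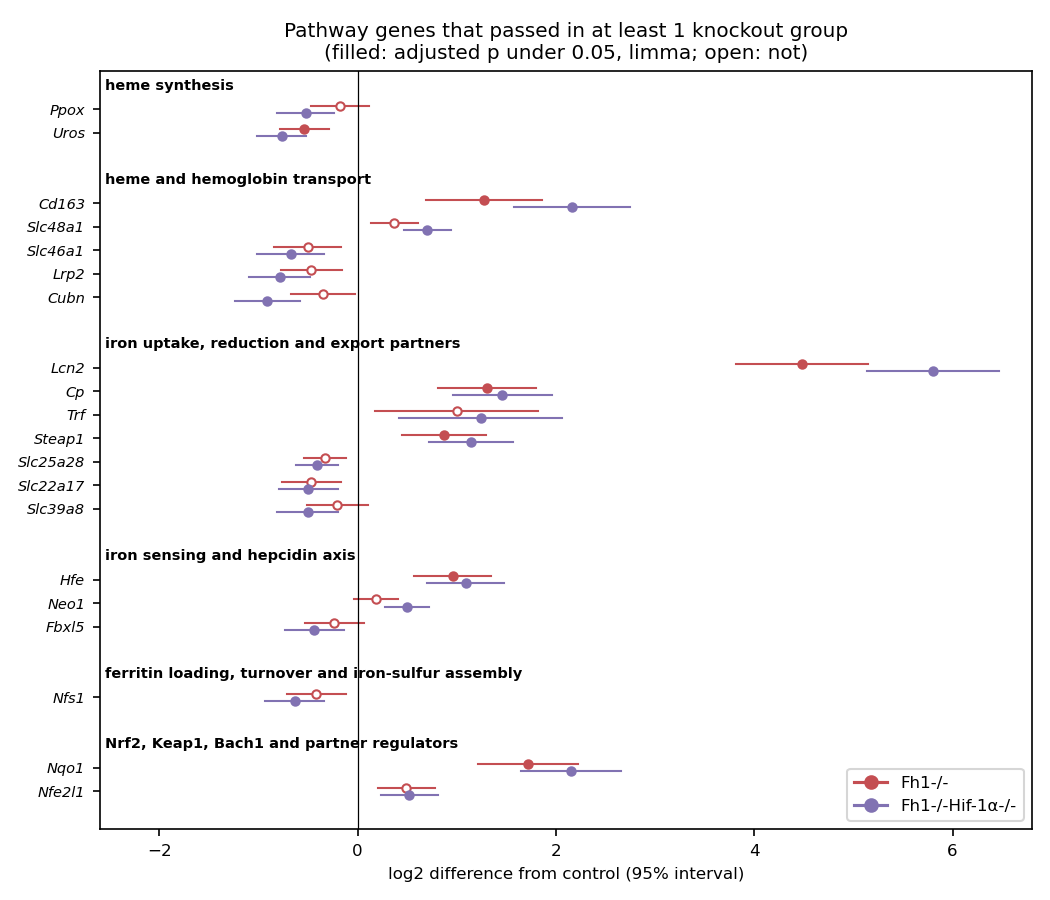
Log2 difference from control with its 95% interval (horizontal axis) in Fh1-/- kidneys and Fh1-/-Hif-1α-/- kidneys, ordered by list. Shown are the 20 genes that passed in at least 1 group. They are from the 65 genes of the heme, iron and Nrf2 regulator lists, other than the members. Filled points had an adjusted p under 0.05 and open points did not, and Lcn2, at 4.48 and 5.80, exceeds every other gene shown.

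Macrophages recycle red cell iron and express Hmox1, Slc40a1, Blvrb and Cd163, and their markers were higher in the knockout kidneys. Of 17 measured markers 10 rose and 0 fell in Fh1-/- kidneys, and 13 rose and 0 fell in Fh1-/-Hif-1α-/- kidneys. The median differences were 0.78 and 0.96, and 3.9% and 10.7% of all genes rose. The summed linear signal ranged over 36053 to 54461 in Fh1-/-, 39900 to 47225 in Fh1-/-Hif-1α-/- and 19163 to 26051 in control kidneys, with no overlap of either knockout group with control. Adgre1, which encodes the surface marker F4/80, rose by 0.96 and 1.05, and Mrc1, the mannose receptor, by 1.37 and 1.84. Csf1r, the receptor for the macrophage growth factor M-CSF, gave 0.04 in each group and did not pass. Marco and Fcgr1 lay below the 25th percentile of signal in all 3 groups. Cd163 stands in this list and in that of heme transport. The part of macrophages in the Hmox1, Slc40a1 and Blvrb values was not tested, and in whole kidney RNA more cells of a type and more RNA per cell cannot be told apart.

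Tubule markers were lower where they differed in the proximal segment. Over all genes 3.9% rose and 2.26% fell in Fh1-/- kidneys, and 10.7% rose and 8.64% fell in Fh1-/-Hif-1α-/- kidneys. Of 14 proximal markers, Lrp2 and Cubn among them, 0 rose and 3 fell in Fh1-/- kidneys, and 0 rose and 9 fell in Fh1-/-Hif-1α-/- kidneys. Of 14 markers of the loop, distal tubule and collecting duct, 2 rose and 5 fell in Fh1-/- kidneys, and 3 rose and 6 fell in Fh1-/-Hif-1α-/- kidneys. Their part in the values of Blvra, Uros and Slc11a2 was not tested.

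**Figure D4:**
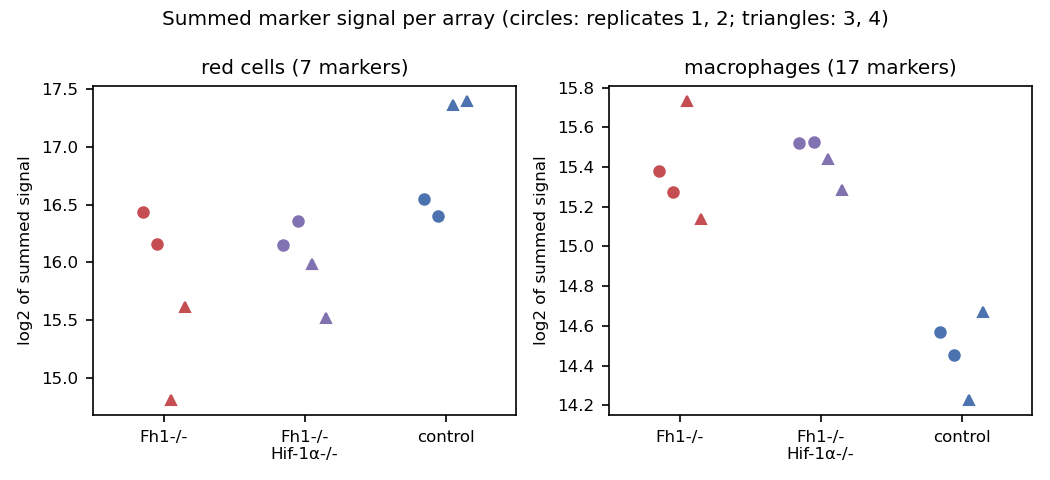
Log2 of the signal summed over 7 red cell markers and over 17 macrophage markers (vertical axes) on each array of Fh1-/-, Fh1-/-Hif-1α-/- and control kidneys, with circles for replicates 1 and 2 and triangles for replicates 3 and 4. Macrophage sums lie at 15.14 or above on knockout arrays and at 14.67 or below on control arrays, and red cell sums are highest on control replicates 3 and 4.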

How the data were processed

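Per the methods of the authors, signals came from GenomeStudio and normalization in GeneSpring GX shifted each array to its 75th percentile. The deposited table used here holds log2 normalized signals, which are not centred although a baseline to the median of all samples is described. Whether they are the values after exactly that shift was not tested. A second deposited table of raw signals and detection p-values was not used, since its 24 columns could not be tied to samples, so signal over background is unknown, and the filter that left 23863 of 45281 probes is not given in the sources used here. Columns had 75th percentiles of 11.06 to 11.12 and were shifted by at most 0.04 to a common value. The 3 groups were fitted in 1 model with limma 3.58.1 in R 4.3.3 (eBayes with a trend), two-sided, with Benjamini-Hochberg adjustment over all probes, and a probe passed at an adjusted p under 0.05. Single probes were also tested by exact permutation over 70 arrangements. A gene stands for its brightest probe. Named genes were all member probes, up to 4 called genes per pathway list with the largest differences, the 5 most like Hmox1, and Fh1, Hif1a, Cdh16, Nqo1, Nfe2l2, Keap1 and Bach1. Other genes beside these, such as marker genes, were named after their values were seen. The members, lists and tests were chosen with earlier results of these data known. On simulated data of 23863 probes, 35 of 50 changed by 1 on the log2 scale and 49 of 50 changed by 2 were recovered in the Fh1-/- comparison, with 4 false calls, and 36, 49 and 2 in the Fh1-/-Hif-1α-/- comparison. The simulated noise was drawn separately for each probe, without array sets, and far fewer probes were changed than were called in these kidneys. These figures check the fit and do not give its power or error rate here. The number of arrays limits the precision, and mice of a group are the replicates. Plots were drawn with matplotlib 3.10.9.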

Additional observations from a re-analysis of the deposited data

Results flagged for a closer look

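In 6 of the 48 groups of 4 arrays formed by the 16 probes, 1 array stood apart from the other 3 by more than the critical value of Dixon's test, where chance gives about 1 in 20. Both Tfrc probes had the same array apart, Fh1-/- replicate 4, at 12.70 (others 12.22 to 12.27) and 12.42 (others 12.06 to 12.10). Control replicate 2 was low for the second Fth1 probe, at 15.76 against 16.23 to 16.31. Fh1-/- replicate 3 was high for Slc40a1, at 14.24 against 14.03 to 14.06. Fh1-/-Hif-1α-/- replicate 2 was high for the brightest Blvrb probe, at 12.53 against 12.32 to 12.34. Control replicate 1 was high for the dimmest Slc11a2 probe, at 9.74 against 9.27 to 9.35.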

How the results depend on the processing

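No member changed direction in a call under any alternative. In Fh1-/- against control kidneys, 2 member probes and 2 genes passed. Both counts were 1 in the plain linear model, with only the 2 groups compared and within replicates 1 and 2, and 0 within replicates 3 and 4, while 1 probe had a fold of at least 2 and 1 an adjusted p under 0.01. With the array set as a block 5 probes and 4 genes passed. The main fit did not pair arrays by replicate number. Same-numbered arrays had correlations of deviations of -0.31 to 0.50. Of 12 matches 6 were best to their own number, where 3 would be if the numbers meant nothing. The numbers also mark the array sets, so this check does not decide whether they pair arrays. With the replicate number as a block 4 probes and 4 genes passed in Fh1-/- kidneys. The replicate block changed no count in the other comparisons by over 1.5 times. Leaving out each array gave 1 to 3 probes and 1 to 3 genes. In Fh1-/-Hif-1α-/- against control kidneys, 4 probes and 3 genes passed, with 8 probes under array weights, 1 probe and 1 gene within replicates 3 and 4, 1 probe at a fold of at least 2, 2 probes at an adjusted p under 0.01, and 3 to 6 probes and 3 to 5 genes without each array, 5 genes without Fh1-/-Hif-1α-/- replicate 1. Of the other pathway genes 7 passed in Fh1-/- kidneys, 11 with the array set as a block and 4 to 9 without each array, an alternative added after the data were seen, the lowest without control replicate 1. Fth1 in Fh1-/-Hif-1α-/- kidneys (main adjusted p = 0.052) passed with equal medians (0.0393), with Xist as a covariate (0.0493) and without dim probes (0.0476), and Alas1 passed there under array weights at -0.49. Between the knockout groups every alternative gave 0. The limits are 4 mice a group, unknown background and ferritin signals at the top of the scale.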
